A study of Mus musculus with 12 samples.

Results

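The genes described here carry dietary fat through the enterocyte, from fatty acid uptake to the assembly of chylomicrons. The module holds 32 genes, looked up by symbol in both deposited count tables, and all 32 stand in each of them. The tables share 26121 genes and together list 30676. The members were sorted by role into 6 genes of fatty acid uptake and activation, 6 of re-esterification, 4 of the lipid droplet coat, 4 of lipolysis, 7 of lipoprotein assembly, 4 apolipoproteins and 1 regulator.

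As background, the enterocyte takes up fatty acids and monoacylglycerol from the gut lumen and rebuilds them into triacylglycerol in the endoplasmic reticulum. Part of that fat is stored for a time in cytosolic lipid droplets. The rest is loaded onto apolipoprotein B with the help of the microsomal triglyceride transfer protein, and the resulting particle leaves through the Golgi into the lymph.

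RNA of mouse duodenum was sequenced in 12 libraries, in 4 groups of 3. The groups are HFD PCN, HFD Vehicle, HFD and Chow, and all mice were of the C57BL/6N strain. They entered high-fat diet (HFD) or regular chow at 6 weeks of age and stayed on it for 18 weeks, and the labels name no engineered allele. In the HFD PCN group, pregnenolone 16α-carbonitrile (PCN), an agonist of the rodent pregnane X receptor, was injected intraperitoneally at 50 mg/kg daily on 4 days. The HFD Vehicle group got 30% DMSO in corn oil. HFD and Chow mice carry no treatment label. The libraries are numbered individually, and no label states that they are separate animals. All p-values then measure the spread between these samples, which may be technical.

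Libraries held 4676718 counts (HFD Vehicle 55) to 20684369 counts (HFD PCN 5), with a median of 15404357. Levels are given as CPM, counts scaled to 1000000 per library after TMM scaling over the 12 libraries. The extraction protocol in the labels speaks of liver whereas the tissue label is duodenum. Vil1, a gene of the microvillus, ranged from 1172 to 2390 CPM and Alb, the albumin gene of hepatocytes, from 0.107 to 1.16 CPM. Adipoq, the adipocyte hormone gene, stood at 0 to 2.67 CPM, and 5 of 10 adipocyte markers were under 1 CPM in every library. The endothelial marker Pecam1 stood at 16.2 to 25.6 CPM and the macrophage marker Adgre1 at 3.00 to 6.96 CPM. In such bulk tissue, fewer cells of a type and less RNA per cell cannot be told apart.

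The members differed widely in level. Per kilobase of exon, the apolipoprotein genes Apoa4 and Apoa1 had the highest mean levels over the 12 libraries, at 3439 and 2436 CPM per kb. They were followed by the fatty acid binding proteins Fabp1 (2127 CPM per kb) and Fabp2 (1080 CPM per kb), by Apob (771 CPM per kb), P4hb (560 CPM per kb) and Mttp (423 CPM per kb). The other end held Abhd5 at 3.71 CPM per kb, the monoglyceride lipase gene Mgll at 2.46 CPM per kb and Apoc2 at 0.50 CPM per kb. Among these 7 leading genes, the ranges over the 12 libraries overlapped for all 6 pairs of neighbours in the order.

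**Figure D1:**
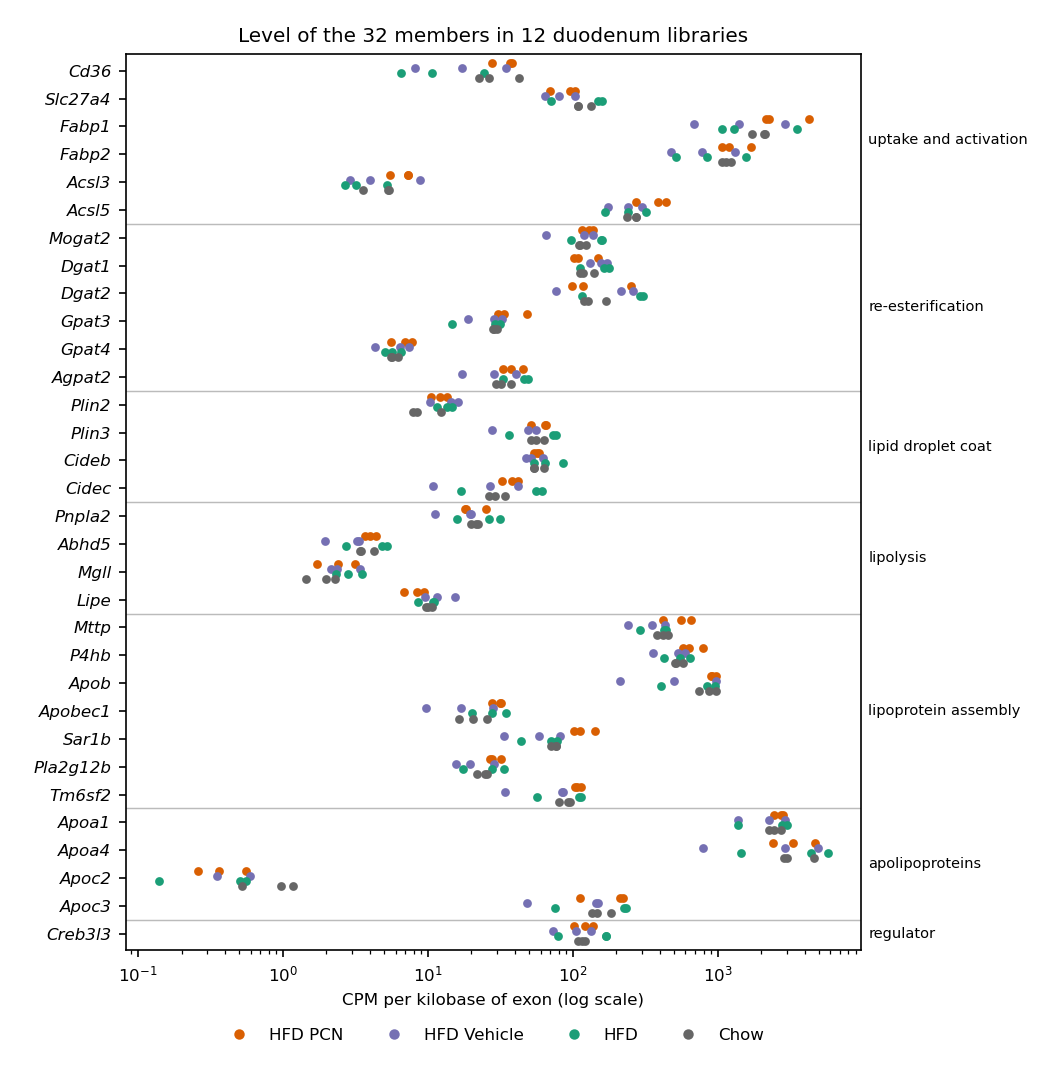
Level of each of the 32 members in CPM per kilobase of exon on a log scale, 1 point per library, coloured by group and with members ordered by role. Apoa4 reaches the highest mean (3439 CPM per kb) and Apoc2 the lowest (0.50 CPM per kb), and HFD Vehicle 55, with 0 counts of Apoc2, has no point in that row.

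Related members were used at different levels within the same library. Of the acyl-CoA synthetases, Acsl5 exceeded Acsl3 by 34.2 to 82.6 times per length, and this held in every library. The glycerol-3-phosphate acyltransferase gene Gpat3 exceeded Gpat4 by 2.25 to 7.49 times, and the droplet coat gene Plin3 exceeded Plin2 by 1.70 to 7.08 times. Fabp2 stood at 0.397 to 0.695 of the level of Fabp1, and Cidec at 0.227 to 0.865 of that of Cideb. The order of 2 pairs was not the same in all libraries. The ratio of Dgat2 to Dgat1 ran from 0.489 to 1.97 and that of Apoa4 to Apoa1 from 0.572 to 2.07.

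Some libraries stood apart before any comparison was made. HFD 4 had the lowest CPM of its group for 29 of 31 members, against 43.5% of all 16090 genes compared, and only Gpat4 and Mgll were not lowest there. HFD Vehicle 23 was the lowest of its group for 25 of 31 members, against 37.4% of genes, the exceptions being Acsl3, Dgat1, Gpat4, Lipe, Mgll and Plin2. HFD Vehicle 55, the shallowest library, was the highest of its group for 22 members, against 38.5% of genes. Summed over the 32 members, the module's share of all counts was 0.969% in HFD Vehicle 23 and 1.80% in HFD 4. It was 2.44% to 4.45% in the other 10 libraries.

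In HFD 4, HFD Vehicle 23 and HFD Vehicle 55 the enterocyte markers moved with the module and the smooth muscle markers moved the other way. In HFD 4 the median member stood at a log2 difference of -0.86 from the other 2 libraries of its group, the median of 15 enterocyte markers at -0.77 and that of 8 smooth muscle markers at 1.11. In HFD Vehicle 23 the values were -0.82 for the members, -1.18 for the enterocyte markers and 0.47 for the smooth muscle markers. In HFD Vehicle 55 they were 0.61, 0.56 and -0.70. Not every library followed this. HFD PCN 11 was the lowest of its group for 19 of 31 members, against 34.7% of genes. Its values were -0.23 for the members, 0.006 for the enterocyte markers and -0.16 for the smooth muscle markers. In HFD Vehicle 50 they were 0.18, 0.40 and 0.41. Myh11, the smooth muscle myosin gene, reached 950 CPM in HFD 4 and 717 and 706 CPM in HFD Vehicle 23 and 50, and lay between 298 and 485 CPM in the other libraries. Hsp90aa1, a heat shock chaperone, reached 1832 and 1487 CPM in HFD Vehicle 23 and 50 and 62.4 to 424 CPM elsewhere. The part of cell makeup or tissue handling in the members' values was not tested.

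**Figure D2:**
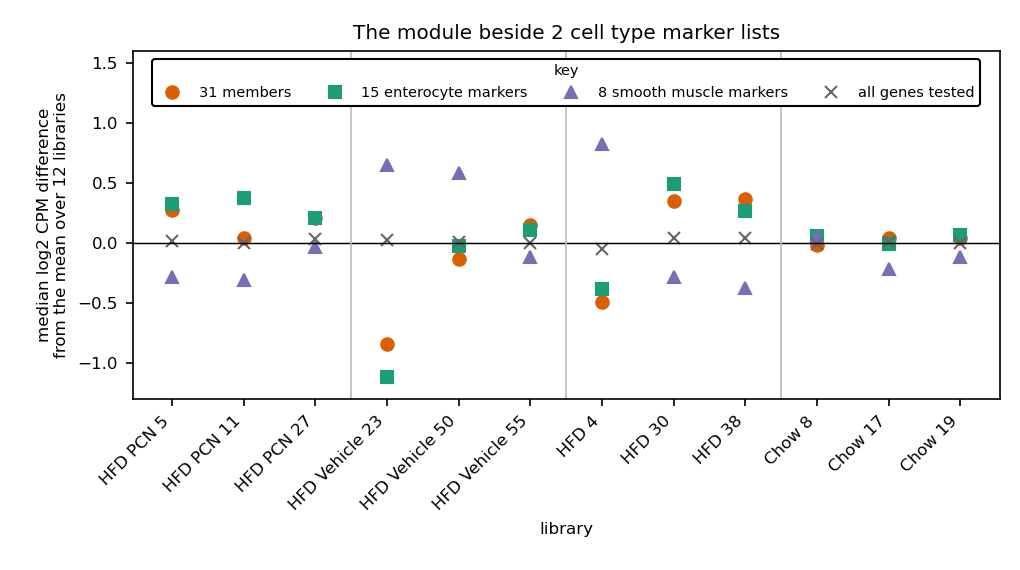
Median log2 difference from the mean over 12 libraries, on the vertical axis, for 31 members, 15 enterocyte markers, 8 smooth muscle markers and all genes tested, 1 column of points per library. The members' points lie lowest in HFD Vehicle 23 (-0.85) and HFD 4 (-0.49), where the enterocyte markers are low as well (-1.12 and -0.39) and the smooth muscle markers high (0.65 and 0.83).

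The comparison of HFD PCN with HFD Vehicle asks what PCN treatment did in mice on high-fat diet. Most members had higher estimates with PCN, led by the chylomicron export gene Sar1b (log2 fold change 1.03), but no single member passed the test. The hormone-sensitive lipase gene Lipe had the lowest estimate, at -0.58. The median log2 fold change was 0.43 for the 31 members tested and -0.01 for all 16110 genes, and 26 members lay above 0 and 5 below, where 49.0% of all genes lay above. When libraries were scaled to the enterocyte markers instead, 10 members lay above 0 and 21 below, with a median of -0.16 against -0.76 for all genes.

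By edgeR's quasi-likelihood test with Benjamini-Hochberg adjustment over all genes, 0 of 31 members were called at an adjusted p under 0.05, where 0.0621% of all genes were called. At an unadjusted p under 0.05 there were 2 members, Sar1b higher and Lipe lower, against 17.9% of all genes (6.46% higher and 11.5% lower). DESeq2, fitted to 28731 genes without the filter on low counts, had 6 of 32 members at that level, 5 of them higher. Of those genes, 10.8% were at that level (4.24% higher). The edgeR shares are over the 16110 genes that passed the filter, so the shares of the 2 tools have unlike bases. The 28731 genes include those of low count that the filter removed, whereas 31 of the 32 members passed it. The DESeq2 share is therefore not a like base for the members' 6 of 32. DESeq2 called 0 members, against 1.93% of the 17589 genes with an adjusted p. The groups did not overlap for 4 members, against 19.3% of genes (9.84% higher and 9.48% lower): Sar1b, Abhd5 and Tm6sf2 were higher in all 3 HFD PCN libraries and Lipe was lower. The 15 enterocyte markers had a median log2 fold change of 0.46 in the same comparison, all of them above 0, and the 8 smooth muscle markers one of -0.69, all below 0.

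The size of the module's difference depended on which HFD Vehicle libraries were used. Without HFD Vehicle 55, 7 members were called, against 22.0% of all genes. They were Sar1b (1.37), Fabp1 (1.47), Cd36 (1.44), Apobec1 (1.20), Acsl3 (0.97) and Pla2g12b (0.72) on the higher side and Lipe (-0.72) on the lower, in log2 fold change. Without HFD Vehicle 23 the median of the members was 0.22. Without HFD Vehicle 23 and 50 together it was 0.0054, in a fit where the 1 remaining HFD Vehicle library is assumed to vary like the HFD PCN libraries. Set against the 3 untreated HFD libraries, the HFD PCN libraries gave a member median of 0.034, with 16 members above 0 and 15 below, and 0 called where 0.325% of genes were.

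The comparison of HFD with Chow asks what the diet did. The estimates of genes that esterify, store and mobilise fat mostly lay above 0, with Dgat2 at 0.76, Mgll at 0.57, Cidec at 0.57 and Plin2 at 0.48 in log2 fold change. The uptake gene Cd36 had the lowest estimate, at -1.14. No member passed the test. By role, the median was 0.27 for re-esterification, 0.36 for the droplet coat, 0.21 for lipolysis, 0.00 for lipoprotein assembly and -0.18 for uptake and activation, against 0.00 for all 15278 genes. In the same comparison the median was 0.18 for the enterocyte markers (10 of 15 above 0), 0.22 for the smooth muscle markers (6 of 8), 0.74 for the macrophage markers (8 of 8) and 0.43 for the capillary endothelial markers (7 of 7 tested). The enterocyte markers were split, with estimates from -1.29 to 0.48. At an unadjusted p under 0.05 by edgeR, 2 of the 15 were lower and 0 higher, against 10.3% of all genes on either side. The part of these cell types in the members' estimates was not tested.

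By edgeR's quasi-likelihood test, 0 of 31 members were called in HFD against Chow, where 0.0655% of all genes were. At an unadjusted p under 0.05 there were 3 members, Plin2, Dgat2 and Mgll, all higher, against 10.3% of genes, 5.75% on the higher side. DESeq2 called 0 members, against 0.833% of genes. In the scaling of the 6 libraries compared, the groups overlapped for every member tested, where 16.3% of genes did not overlap. Over all 31 the median was 0.11, with 19 above 0 and 12 below (21 and 10 with enterocyte scaling), where 50.5% of all genes lay above. With that scaling the median was 0.11 for the members and 0.09 for all genes. The markers used for it were themselves split between HFD and Chow, with estimates from -1.29 to 0.48.

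The library HFD 4 carried much of the spread in the diet comparison. Without it, 13 of 32 members had an unadjusted p under 0.05, all higher, against 7.11% of all genes higher at that level. The median of the members was then 0.35 and that of all genes -0.02, and still no member was called. Dgat2 (log2 fold change 1.06) and Cidec (0.92) had the lowest adjusted p among these members, 0.114 each by edgeR. As log2 differences from the mean over 12 libraries, the enterocyte markers had medians of 0.49 in HFD 30 and 0.27 in HFD 38. In Chow 8, 17 and 19 they were at 0.06, -0.01 and 0.07. The members stood at 0.35 and 0.37 in HFD 30 and 38, and at -0.02, 0.04 and 0.04 in Chow 8, 17 and 19. The part of enterocytes in the members' values was not tested. Without HFD 38 the median of the members was -0.06, and Cd36 was called at a log2 fold change of -1.81 with an adjusted p of 0.0415 by edgeR, against 0.421% of genes.

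HFD Vehicle against HFD asks what goes with the injected vehicle, and it shares its libraries with the comparisons above. Estimates were mostly below 0, with 24 of 31 members below and 7 above (15 and 16 with enterocyte scaling). Their median was -0.31 against 0.01 for all 16255 genes, of which 50.7% lay above 0. With enterocyte scaling the median was 0.06 for the members and 0.40 for all genes. The enterocyte markers had a median of -0.32, with 12 of 15 below 0, and the smooth muscle markers one of 0.18, with 8 of 8 above 0. The part of either cell type was not tested. By edgeR's quasi-likelihood test 0 members were called, where 0.0% of all genes were. There were 0 members at an unadjusted p under 0.05, against 5.86% of genes, and 0 called by DESeq2, against 0.18%. The groups overlapped for every member tested, where 9.92% of genes did not overlap. The lowest estimate was that of Cidec, at -0.75, and the highest that of Cd36, at 0.52. Without HFD Vehicle 23 the median was -0.08, and without HFD 4 it was -0.51. Without HFD 4 and HFD Vehicle 23 together, an alternative chosen after seeing the data, it was -0.23.

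**Figure D3:**
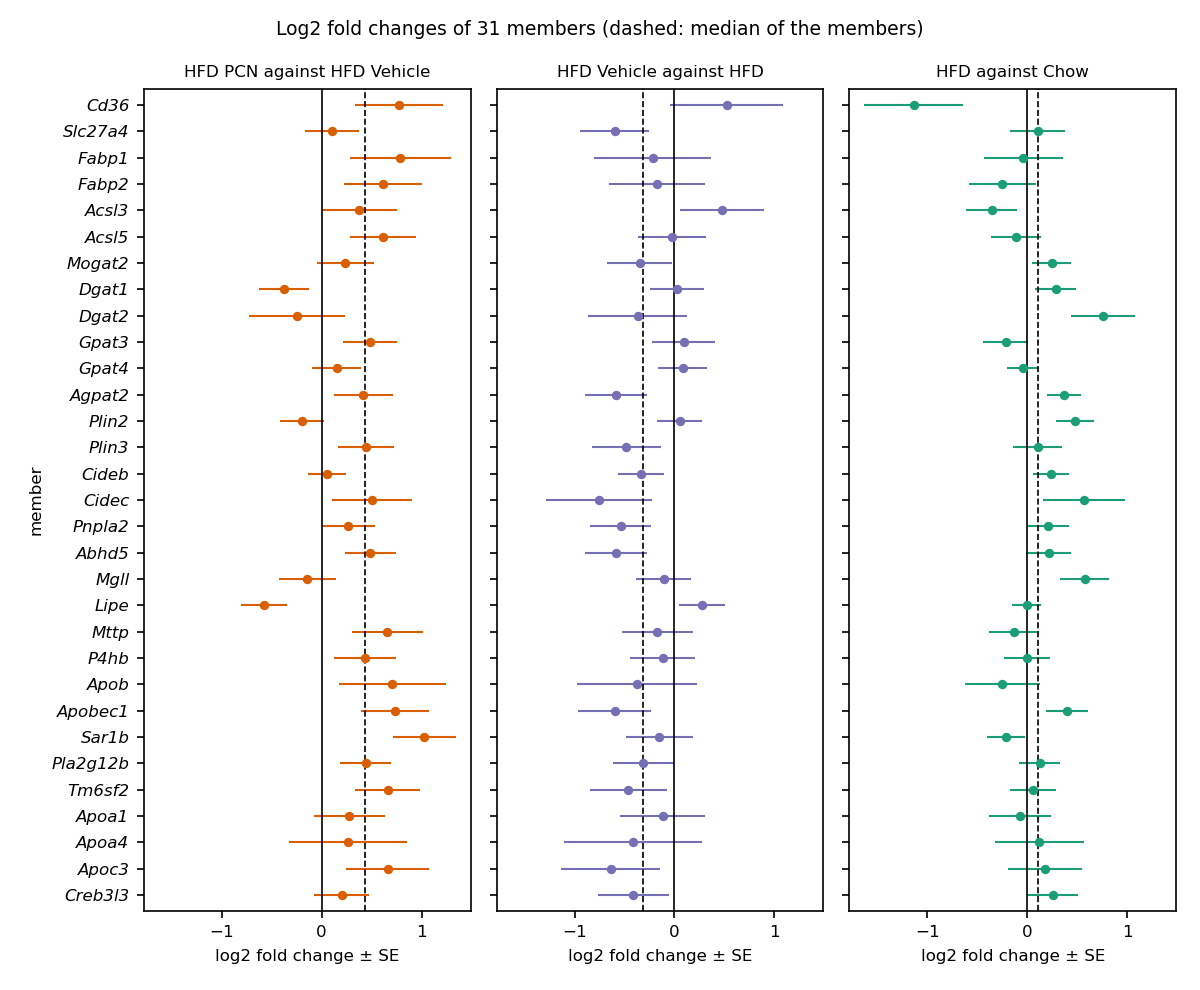
Log2 fold change with its standard error for 31 members in HFD PCN against HFD Vehicle, HFD Vehicle against HFD and HFD against Chow, with the members' median as a dashed line (0.43, -0.31 and 0.11). Sar1b lies farthest above 0 in the first panel and Cd36 farthest below 0 in the third.

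Among the uptake genes, Cd36 (ENSMUSG00000002944), a fatty acid translocase of the plasma membrane, varied by 6.52 times between its lowest and highest library. It stood at 137, 99.1 and 133 CPM in HFD PCN 5, 11 and 27 and at 29.2, 61.4 and 125 CPM in HFD Vehicle 23, 50 and 55. It stood at 23.6, 38.1 and 87.8 CPM in HFD 4, 30 and 38 and at 94.6, 80.6 and 154 CPM in Chow 8, 17 and 19. The HFD libraries 4 and 30 were below every Chow library, but HFD 38 lay among them, so the groups overlapped. The log2 fold change of HFD against Chow was -1.14 with an SE of 0.49 and an adjusted p of 0.488 by edgeR. That of HFD PCN against HFD Vehicle was 0.77 with an SE of 0.44 and an adjusted p of 0.354.

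Fabp1 (ENSMUSG00000054422, chromosome 6, 71199827 to 71205023), the liver-type fatty acid binding protein that is also abundant in proximal gut, varied by 6.19 times between libraries. Its levels were 2357, 1256 and 1185 CPM in HFD PCN 5, 11 and 27, and 381, 780 and 1603 CPM in HFD Vehicle 23, 50 and 55. They were 598, 713 and 1941 CPM in HFD 4, 30 and 38, and 1164, 961 and 1179 CPM in Chow 8, 17 and 19. The Chow libraries lay close together and below the HFD PCN libraries, whereas HFD Vehicle and HFD each held libraries above and below them. Fabp1 differed by 0.78 in log2 fold change between HFD PCN and HFD Vehicle, with an SE of 0.51 and an adjusted p of 0.404 by edgeR. Between HFD and Chow it differed by -0.04, with an SE of 0.40.

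Fabp2, the intestinal-type binding protein, averaged 1279 ± 311 CPM in HFD PCN, 831 ± 415 in HFD Vehicle, 947 ± 522 in HFD and 1112 ± 75.8 in Chow (SD, n = 3 each). Acsl5, an acyl-CoA synthetase of the small intestine, averaged 1786 ± 416 CPM in HFD PCN, 1159 ± 307 in HFD Vehicle, 1186 ± 373 in HFD and 1270 ± 100.1 in Chow. Slc27a4, a fatty acid transport protein with acyl-CoA synthetase activity, averaged 397 ± 78.1 CPM in HFD PCN, 366 ± 88.5 in HFD Vehicle, 559 ± 213 in HFD and 514 ± 62.2 in Chow. For all of these the groups overlapped in each comparison. Acsl3, the synthetase that works at nascent lipid droplets, was much lower in level, at 32.1, 31.8 and 23.9 CPM in HFD PCN 5, 11 and 27 and 17.4, 12.6 and 38.3 CPM in HFD Vehicle 23, 50 and 55. Only HFD Vehicle 55 exceeded any of the HFD PCN libraries. Against untreated HFD, at 11.7, 13.96 and 22.7 CPM, the HFD PCN libraries were all higher, with a log2 fold change of 0.84, an SE of 0.24 and an adjusted p of 0.146 by edgeR.

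Promoters of Fabp1 and Cd36 are shown because these uptake genes varied most between libraries and because nuclear receptors that pair with the retinoid X receptor, PPARα among them, act on such genes through repeats of the half-site AGGTCA. The 250 bases before the RefSeq start are given 5′ to 3′ on the gene's strand, in build GRCm38.p6, with the half-site in capitals; TGACCT is the half-site on the opposite strand. They cover chr6:71199629-71199878 on the plus strand for Fabp1 and chr5:17835897-17836146 on the minus strand for Cd36.

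Fabp1: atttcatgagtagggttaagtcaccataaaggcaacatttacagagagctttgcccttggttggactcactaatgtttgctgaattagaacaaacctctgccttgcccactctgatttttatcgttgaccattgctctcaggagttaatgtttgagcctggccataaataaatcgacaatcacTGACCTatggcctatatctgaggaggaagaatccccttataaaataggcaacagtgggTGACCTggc

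Cd36: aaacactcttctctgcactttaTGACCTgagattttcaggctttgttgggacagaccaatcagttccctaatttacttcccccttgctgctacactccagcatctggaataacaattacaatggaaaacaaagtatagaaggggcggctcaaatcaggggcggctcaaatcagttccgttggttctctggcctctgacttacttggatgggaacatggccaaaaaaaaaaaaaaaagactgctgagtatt

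Fabp1 held the half-site at positions -67 and -9 from the RefSeq start and Cd36 at position -228. The RefSeq start of Cd36 lies inside the gene as annotated in the deposited tables (chromosome 5, 17781690 to 17888801). So do the last printed bases of Fabp1, the half-site at -9 among them, since the tables start that gene at 71199827. RefSeq windows of 300 bases, from 250 before to 50 after the start, were matched by symbol for 26 of 32 members, giving 30 windows. AGGTCA, on either strand, occurred in 6 of them (20.0%), those of Abhd5, Apoc2, Cd36, Creb3l3, Fabp1 and Plin2, against 16.3% of all 32851 windows. The DR1 element, a direct repeat of the half-site with 1 base between the copies, was searched as an exact repeat only. It occurred in 0 of the 30 windows, against 0.0396% of all. In Fabp1 the half-site at -67 is followed, after 1 base, by tggcct, which differs from TGACCT by 1 base. The exact search does not count such imperfect repeats. These matches describe the letters in the windows and do not show binding.

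The re-esterification genes rebuild triacylglycerol along the monoacylglycerol and glycerol phosphate routes. Dgat2 (ENSMUSG00000030747, chromosome 7, 99153658 to 99182719), one of the enzymes for the last step, stood at 360, 941 and 903 CPM in HFD 4, 30 and 38 and at 370, 520 and 396 CPM in Chow 8, 17 and 19. HFD 30 and 38 lay above all Chow libraries and HFD 4 below them. Its log2 fold change was 0.76 with an SE of 0.32, an unadjusted p of 0.0365 and an adjusted p of 0.462 by edgeR. In HFD PCN 5, 11 and 27 it stood at 305, 361 and 779 CPM, against 235, 661 and 799 CPM in HFD Vehicle 23, 50 and 55, so the groups overlapped over most of their range.

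Dgat1, the other enzyme for that step, had the narrowest spread of all tested members, with a highest level 1.74 times its lowest. It averaged 365 ± 77.0 CPM in HFD PCN, 470 ± 65.1 in HFD Vehicle, 463 ± 105 in HFD and 377 ± 45.2 in Chow (SD, n = 3 each). It was among the few members with a negative estimate for PCN (log2 fold change -0.38, SE 0.25, adjusted p 0.413 by edgeR). Mogat2, which acylates monoacylglycerol, averaged 235 ± 21.1 CPM in HFD PCN, 198 ± 69.5 in HFD Vehicle, 253 ± 64.8 in HFD and 212 ± 12 in Chow. Of the glycerol phosphate route, Gpat3 ranged from 51.4 CPM (HFD 4) to 169 CPM (HFD PCN 5), Gpat4 from 29.0 to 51.6 CPM and Agpat2, the next acyltransferase, from 36.6 to 105 CPM. Agpat2 had a log2 fold change of 0.37 in HFD against Chow, with an SE of 0.17 and an adjusted p of 0.485 by edgeR.

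The droplet coat genes differed in how they stood in the low libraries. Plin2 (ENSMUSG00000028494, chromosome 4, 86648386 to 86670060), which coats cytosolic droplets, stood at 40.6, 47.9 and 51.3 CPM in HFD 4, 30 and 38 and at 27.6, 43.6 and 29.4 CPM in Chow 8, 17 and 19. Only Chow 17 lay within the HFD range. The log2 fold change was 0.48 with an SE of 0.19, an unadjusted p of 0.029 and an adjusted p of 0.445 by edgeR. Plin2 was highest in HFD Vehicle 23, at 57.1 CPM, the library in which most members were lowest.

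Cidec (ENSMUSG00000030278, chromosome 6, 113424634 to 113435760), a fat-specific protein that promotes droplet fusion, varied by 5.62 times between libraries. It stood at 31.6, 114 and 103 CPM in HFD 4, 30 and 38 and at 54.1, 63.4 and 49.4 CPM in Chow 8, 17 and 19. HFD 30 and 38 were above, and HFD 4 below, all Chow libraries, and the log2 fold change was 0.57 with an SE of 0.41. Its relative Cideb, which acts in the lipidation of apolipoprotein B particles, ranged only from 71.4 to 128 CPM. Plin3, a coat protein of small new droplets, averaged 230 ± 29.1 CPM in HFD PCN, 167 ± 55.2 in HFD Vehicle, 234 ± 84.2 in HFD and 216 ± 23.8 in Chow (SD, n = 3 each).

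The lipolysis genes were of low level. Lipe (ENSMUSG00000003123, chromosome 7, 25379527 to 25398710), hormone-sensitive lipase, stood at 49.9, 40.5 and 55.8 CPM in HFD PCN 5, 11 and 27 and at 68.6, 91.4 and 56.0 CPM in HFD Vehicle 23, 50 and 55. All HFD PCN libraries were lower, although HFD PCN 27 and HFD Vehicle 55 were almost level. The log2 fold change was -0.58 with an SE of 0.23, an unadjusted p of 0.0324 and an adjusted p of 0.257 by edgeR, which ranged from 0.0374 to 0.997 over the alternatives. HFD 4, 30 and 38 had 50.5, 64.0 and 64.9 CPM and Chow 8, 17 and 19 had 56.8, 59.1 and 63.4 CPM, a log2 fold change of 0.00 ± 0.15. (SE) Lipe is also an adipocyte gene; the adipocyte markers summed to 14.9 to 16.8 CPM in HFD PCN and 17.3 to 34.4 CPM in HFD Vehicle, and their part in its difference was not tested.

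Abhd5, the coactivator of adipose triglyceride lipase, stood at 26.0, 21.9 and 23.9 CPM in HFD PCN 5, 11 and 27 and at 11.6, 19.5 and 20.1 CPM in HFD Vehicle 23, 50 and 55. All HFD PCN libraries were higher, with a log2 fold change of 0.49, an SE of 0.25 and an adjusted p of 0.323 by edgeR. Set against HFD, at 16.2, 31.1 and 28.7 CPM, its estimate for PCN was -0.10. The lipase gene itself, Pnpla2, ranged from 33.8 to 94.7 CPM, with overlapping groups in each comparison. Mgll, which releases the last fatty acid, stood at 17.7, 14.4 and 11.8 CPM in HFD 4, 30 and 38 and at 7.39, 11.7 and 10.02 CPM in Chow 8, 17 and 19. At these levels, scaled over 12 libraries, every HFD library lay above every Chow library, with HFD 38 and Chow 17 almost level. In the scaling of the 6 libraries compared, by which overlap was judged, the groups overlapped. The log2 fold change was 0.57 with an SE of 0.24 and an adjusted p of 0.463 by edgeR.

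The lipoprotein assembly genes all had estimates above 0 in HFD PCN against HFD Vehicle, with a median log2 fold change of 0.66, although P4hb (-0.21) and Pla2g12b (-0.21) lay below 0 with enterocyte scaling. Sar1b (ENSMUSG00000020386, chromosome 11, 51763687 to 51791925), the GTPase that starts the transport vesicle for chylomicrons and is mutated in human chylomicron retention disease, had the largest estimate of the module. It stood at 178, 140 and 128 CPM in HFD PCN 5, 11 and 27 and at 42.2, 73.0 and 103 CPM in HFD Vehicle 23, 50 and 55. It stood at 55.2, 88.9 and 97.9 CPM in HFD 4, 30 and 38 and at 95.5, 95.6 and 88.3 CPM in Chow 8, 17 and 19. The HFD PCN libraries thus held the 3 highest values of the 12.

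The log2 fold change of Sar1b for PCN was 1.03 with an SE of 0.31, an unadjusted p of 0.00867 and an adjusted p of 0.231 by edgeR, which ranged from 0.00781 to 0.997 over the alternatives. DESeq2 gave 1.05 with an adjusted p of 0.0656. The authors' deposited table gave a log2 fold change of 0.92 with an adjusted p of 0.1229. Its estimate also lay above 0 in settings that brought the module's median near or below 0. It was 0.88 against untreated HFD (adjusted p 0.109 by edgeR), 0.50 without HFD Vehicle 23 and 50 together, and 0.45 with enterocyte scaling. In these settings 16, 16 and 10 of 31 members lay above 0, Sar1b among them. All of them use the same 3 HFD PCN libraries, and Sar1b is followed here for its large estimate. With enterocyte scaling 0 members were higher at an unadjusted p under 0.05 by edgeR, where 94 of 16110 genes were. With no filter on low counts Sar1b was called, at 1.06 and an adjusted p of 0.0126 by edgeR, together with 2.93% of all genes. In HFD against Chow its estimate was -0.21 with an SE of 0.19.

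Apob (ENSMUSG00000020609, chromosome 12, 7977648 to 8016835), which encodes the structural protein of the particle, took 23.7% to 38.7% of the module's summed CPM. It stood at 13521, 12554 and 12669 CPM in HFD PCN 5, 11 and 27 and at 2935, 6934 and 13686 CPM in HFD Vehicle 23, 50 and 55. It stood at 5639, 11768 and 13287 CPM in HFD 4, 30 and 38 and at 12084, 10346 and 13575 CPM in Chow 8, 17 and 19. The HFD PCN libraries were close to each other, and HFD Vehicle 55 exceeded them all. The log2 fold change for PCN was 0.71 with an SE of 0.54 and an adjusted p of 0.468 by edgeR.

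Mttp, the lipid transfer subunit, averaged 3368 ± 731 CPM in HFD PCN, 2121 ± 600.2 in HFD Vehicle, 2401 ± 507 in HFD and 2608 ± 229 in Chow (SD, n = 3 each). Its partner subunit P4hb, protein disulfide isomerase, averaged 1922 ± 324 CPM in HFD PCN, 1414 ± 349 in HFD Vehicle, 1542 ± 318 in HFD and 1529 ± 105 in Chow. Their ratio per length, 0.662 to 0.890 over the 12 libraries, was the steadiest of the 8 pairs set side by side. Apobec1, the enzyme that edits Apob mRNA to the short intestinal form, stood at 86.4, 85.4 and 75.5 CPM in HFD PCN 5, 11 and 27 and at 26.3, 45.8 and 76.7 CPM in HFD Vehicle 23, 50 and 55. HFD Vehicle 55 lay just within the HFD PCN range, and the log2 fold change was 0.73 with an SE of 0.34 and an adjusted p of 0.287 by edgeR.

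Tm6sf2, a membrane protein needed for full lipidation of the particle, stood at 217, 198 and 204 CPM in HFD PCN 5, 11 and 27 and at 65.1, 163 and 162 CPM in HFD Vehicle 23, 50 and 55. The groups did not overlap, and the log2 fold change was 0.66 with an SE of 0.33 and an adjusted p of 0.308 by edgeR. HFD 30 and 38, at 218 and 212 CPM, lay within or just above the HFD PCN range. Pla2g12b, another factor of particle lipidation, averaged 34.1 ± 3.22 CPM in HFD PCN, 25.2 ± 7.96 in HFD Vehicle, 31.03 ± 9.62 in HFD and 28.5 ± 2.45 in Chow (SD, n = 3 each).

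**Figure D4:**
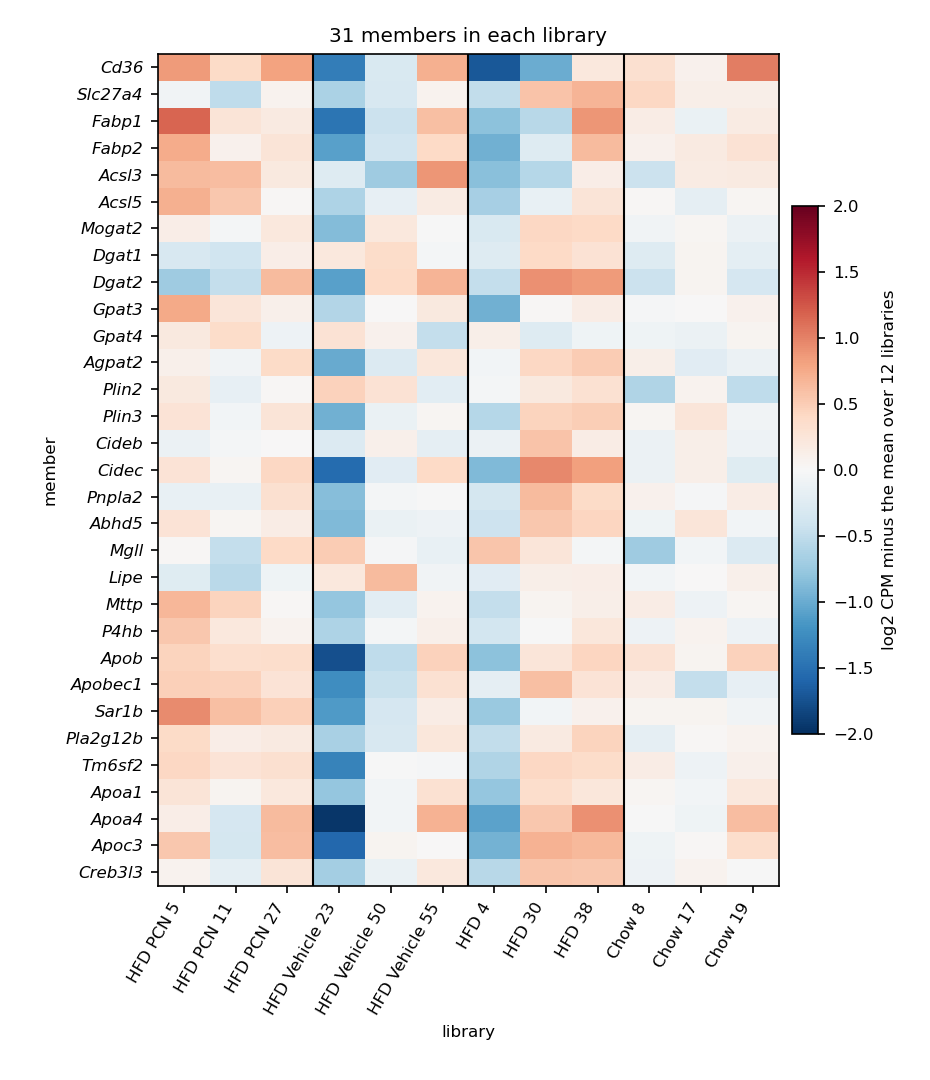
Log2 CPM minus the mean over 12 libraries for 31 members (down the page, by role) in each library (across, by group), red above and blue below the mean. HFD Vehicle 23 and HFD 4 are blue for most members, and Sar1b is above its mean in all 3 HFD PCN libraries.

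The apolipoprotein genes Apoa1, Apoc3 and Apoa4 lie side by side on chromosome 9, between 46228580 and 46243459 in GRCm38, with gaps of 2466 and 5059 bases. Apoa4 (ENSMUSG00000032080), which encodes a surface protein of chylomicrons, varied most of all tested members, by 7.29 times. It stood at 6046, 4373 and 8574 CPM in HFD PCN 5, 11 and 27 and at 1431, 5307 and 8915 CPM in HFD Vehicle 23, 50 and 55. It stood at 2647, 8067 and 10428 CPM in HFD 4, 30 and 38 and at 5482, 5189 and 8450 CPM in Chow 8, 17 and 19. The groups overlapped in every comparison, with log2 fold changes of 0.26 (SE 0.59) for PCN and 0.12 (SE 0.45) for the diet.

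Apoc3, an inhibitor of lipoprotein lipase, varied by 4.83 times and Apoa1 by 2.19 times. Apoc3 averaged 185 ± 60.9 CPM in HFD PCN, 116 ± 57.7 in HFD Vehicle, 181 ± 91 in HFD and 158 ± 25.6 in Chow (SD, n = 3 each). Apoa1, the main protein of high-density lipoprotein, averaged 3307 ± 244 CPM in HFD PCN, 2709 ± 957 in HFD Vehicle, 2956 ± 1091 in HFD and 3071 ± 291 in Chow. Apoc2, the activator of lipoprotein lipase, had 0 to 13 counts per library and stayed below the filter on low counts, so it was not tested. Creb3l3, a transcription factor of the endoplasmic reticulum that acts on Apoa4, averaged 365 ± 56.9 CPM in HFD PCN, 315 ± 92.4 in HFD Vehicle, 421 ± 158 in HFD and 348 ± 19.5 in Chow.

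The other genes of fat handling, 82 in 6 lists outside the module, gave no call in any of the 3 comparisons by edgeR. At an unadjusted p under 0.05 there were 7 higher and 6 lower of 68 tested in HFD PCN against HFD Vehicle, 4 higher and 0 lower of 68 in HFD Vehicle against HFD, and 7 higher and 7 lower of 67 in HFD against Chow. The shares of all genes at that level were 17.9% (6.46% higher and 11.5% lower), 5.86% and 10.3% (5.75% higher). In HFD Vehicle against HFD these were 594 higher and 359 lower of 16255 genes. In HFD against Chow 702 of 15278 genes were lower. The list of fat digestion in the lumen held 3 of the 4 higher in HFD Vehicle against HFD and 4 of the 7 lower in HFD against Chow. DESeq2 called Pparg and Hsd17b11 in the first, 0 in the second and Pnliprp1 in the third, where it called 1.93%, 0.18% and 0.833% of all genes. In HFD PCN against HFD Vehicle, the genes named by the smallest p included Hsd17b11, a lipid droplet dehydrogenase, and Pparg, a lipid-sensing nuclear receptor. Hsd17b11 averaged 327 ± 104 CPM in HFD PCN and 132 ± 61.4 CPM in HFD Vehicle (SD, n = 3 each), a log2 fold change of 1.30 ± 0.37 (SE) and an adjusted p of 0.231 by edgeR. Pparg averaged 37.1 ± 9.62 CPM in HFD PCN and 15.9 ± 5.81 CPM in HFD Vehicle, a log2 fold change of 1.23 ± 0.32 (SE) and an adjusted p of 0.231. A1cf, which helps Apobec1 to edit Apob mRNA, had 0.78 with an SE of 0.23. The acyl-CoA binding protein gene Dbi had 0.76 with an SE of 0.26. The groups did not overlap for any of these 4, which were named for a small p. On the higher side, 9.84% of all genes did not overlap.

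On the lower side of HFD PCN against HFD Vehicle stood the luminal lipase genes Pnlip (log2 fold change -2.72, SE 1.24) and Cel (-2.64, SE 1.02), with adjusted p of 0.299 and 0.256 by edgeR. The pancreatic acinar markers lay below 0 as well, 8 of 8 tested, with a median of -1.84, and their part in this was not tested. The fatty acid transport protein gene Slc27a1 had -0.87, the seipin gene Bscl2, which acts in droplet formation, -0.84, and the coactivator gene Ppargc1b -0.82. The groups overlapped for all 5 of these genes. The acyltransferase gene Agpat4 had -0.88 with an adjusted p of 0.284 by edgeR, and all its HFD PCN libraries were lower. Its levels were low, on average 1.56 CPM in HFD PCN and 2.81 CPM in HFD Vehicle. On the lower side, 9.48% of all genes did not overlap.

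In HFD against Chow, Hsd17b11 averaged 162 ± 42.6 CPM in HFD and 266 ± 47.9 CPM in Chow, a log2 fold change of -0.72 ± 0.22 (SE) and an adjusted p of 0.334 by edgeR. Apoe, a ligand of lipoprotein receptors, averaged 135 ± 24.9 CPM in HFD and 66.5 ± 34.0 CPM in Chow, a log2 fold change of 1.02 ± 0.32 (SE) and an adjusted p of 0.372. Macrophages also express Apoe, and the 8 macrophage markers all lay above 0 in this comparison, with a median of 0.74 and 5 at an unadjusted p under 0.05. Their part in the difference of Apoe was not tested. The fatty acid receptor gene Ppard had 0.63 with an SE of 0.20. The pancreatic genes of fat digestion in the lumen, at low levels, had a list median of -2.66 over 5 genes, with estimates from -3.35 to -0.12. Pnliprp1 averaged 0.792 ± 0.688 CPM in HFD and 5.55 ± 3.37 CPM in Chow. The pancreatic acinar markers moved with them, at summed levels of 6.97 to 20.6 CPM in HFD and 43.4 to 110.3 CPM in Chow, and their part in this was not tested.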

How the data were processed

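Tables of raw counts per gene were deposited by the authors, 1 with the HFD and Chow libraries and 1 with the HFD PCN and HFD Vehicle libraries. HISAT2, HTSeq and DESeq2 were used on GRCm38, per the submitters' processing notes. Versions, annotation release and strand setting are not given in the sources used here, so overlapping and antisense genes are uncertain. The authors' comparison columns (log2 fold change and p-values) are quoted for Sar1b alone.

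Each comparison was fitted with edgeR 4.0.16 in R 4.3.3 on its own 6 libraries, with filterByExpr, TMM and the robust quasi-likelihood F-test over all genes, and genes were called at adjusted p under 0.05 (Benjamini-Hochberg). The HFD Vehicle against HFD fit joined both tables on shared genes. Standard errors, which are approximate, are the log2 fold change over F's square root. Levels of single libraries used TMM over 12 libraries, and levels per kb used exon lengths of GENCODE M21. Overlap of groups was judged in the scaling of each comparison's own libraries. The fits were tested on simulated counts with the same dispersion for every gene and no shift shared by the genes of a library. That test therefore does not cover the spread between libraries described here. DESeq2 1.42.0 was an alternative, beside other filters, scalings and libraries left out.

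The members and lists were chosen with earlier results of these data known. All members are named; of the other lists, called genes and up to 2 genes with the smallest p in each main comparison could be named, and a few of these are given. Promoters come from RefSeq.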

Additional observations from a re-analysis of the deposited data

How the results depend on the processing

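No paired analysis was possible because the libraries are numbered individually and no number occurs in more than 1 group. In HFD against Chow, the count of genes called was 10, and 134 with DESeq2, 351 with no filter, 16 with enterocyte scaling, 2 in the fit of all 12 libraries and 4 to 63 with 1 library left out. Over the same left-out libraries, 0 to 1 members were called and their median ran from -0.06 to 0.35. In HFD PCN against HFD Vehicle, the count was 10, and 339 with DESeq2, 843 with no filter (1 member), 4 without ribosomal RNA-like and mitochondrial genes, 34 in the fit of all 12 libraries, 2 without HFD Vehicle 23 and 50 together and 52 against untreated HFD. With 1 library left out it ran from 0 (without HFD Vehicle 50 or HFD PCN 11) to 3697 (without HFD Vehicle 55), the members called from 0 to 7 and their median from 0.22 to 0.66. That median was -0.16 with enterocyte scaling, where all genes stood at -0.76, 0.0054 without HFD Vehicle 23 and 50 together and 0.034 against untreated HFD. In HFD Vehicle against HFD, the count was 0, and 32 with DESeq2, 1 with no filter, 1 in the fit of all 12 libraries and 0 to 260 with 1 library left out; the median of the members ran from -0.61 to -0.08. The cause of these shifts was not tested. DESeq2's size factors within edgeR changed no call of a member. The shallow libraries HFD Vehicle 55 (4676718 counts) and HFD 4 (4925123 counts) limit the precision of the groups that hold them.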
